A study of Mus musculus with 24 samples.

Results

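The genes described here encode the extracellular matrix and the basement membrane, with the enzymes that build collagen and the proteases and inhibitors that remodel it. The set held 57 genes, chosen by name and function from 22911 gene symbols on the array, with earlier results of these data known. All 57 were measured, 33 by 1 probe, 20 by 2 probes and 4 by 3 probes. They comprised 5 fibrillar collagen chains, 6 collagen IV chains, 7 other collagen chains, 7 laminin chains, 3 nidogen and perlecan genes, 9 glycoproteins and elastic fibre proteins, 5 proteoglycan and link protein genes, 9 collagen-modifying enzymes and 6 proteases and protease inhibitors.

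A basement membrane is a thin sheet beneath epithelial and endothelial cells and around nerve and muscle, in which a laminin network and a collagen IV network are joined by nidogens and perlecan. The interstitial matrix beyond it is built from fibrillar collagens, fibronectin, elastic fibres and large proteoglycans. Collagen chains are hydroxylated, folded and checked by dedicated enzymes and chaperones in the endoplasmic reticulum before they are secreted. Tumour cells both make matrix and remodel it, and the matrix that a disseminated cell meets or makes has long been studied in tumour dormancy.

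RNA was measured on single-colour mouse oligonucleotide arrays in cell lines from a melanoma and a leukemia model of tumour dormancy in mice. B16-M is the parental B16F1 melanoma line carrying GFP. B16-D is a melanoma line of dormant cells recovered from syngeneic mice that had been vaccinated with irradiated tumour cells expressing GM-CSF. B16-D-733, B16-D-735 and B16-D-739 are melanoma lines of second-generation dormant cells, which the methods describe as recovered from the brain. The labels do not say which brain-derived line in the growth protocol each of these numbers stands for. M0-p20 and J365-p20 are labelled only as leukemia cells, and their reading as the parental DA1-3b myeloid leukemia line and its dormant derivative (isolated from mice vaccinated with IL-12-expressing cells) is inferred from the study's methods. Every dormant line was expanded in culture and stored frozen before RNA was made, the melanoma lines in DMEM with 10% serum, so each is a cultured derivative and no longer the dormant cells of the mouse. No strain, sex or age of the host mice is given in the labels. Of 24 arrays, 23 were used: 3 of B16-M, 3 of B16-D, 4 of B16-D-733, 3 of B16-D-735, 3 of B16-D-739, 4 of M0-p20 and 3 of J365-p20. Nothing in the labels says that replicates came from separate cultures, so the p-values measure the spread between these arrays, which may be technical.

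Levels are given as log2 signal relative to the array's 75th percentile spot, so that 0 is the brightness of that spot. The dimmest single spot still well above background lay between -5.18 and -4.19 on this scale, 46.0% to 55.8% of spots were well above background on the arrays used, and no spot was saturated. The remaining array, B16-D replicate 2, stood apart with 90.3% of spots above background and was left out. A gene is called detected in a line when at least as many of its arrays were well above background as were not. All 8 melanocyte markers were detected in every melanoma line, and 7 of 9 myeloid leukemia markers in both leukemia lines, where Kit and Cd34 were on no array above background. Of 12 fibroblast markers, 5 were detected in B16-M and 5 or 6 in each dormant melanoma line, with a summed log2 level of 4.67 to 4.92 in B16-M, 4.94 to 5.56 in B16-D, 4.84 to 5.20 in B16-D-733, 4.51 to 4.85 in B16-D-735 and 4.76 to 5.26 in B16-D-739. Thy1, Dpt, Twist1, Twist2 and Meox2 were at background on every melanoma array, as were 6 of 7 endothelial markers. The fibroblast marker Pdgfrb, a PDGF receptor, was at background on all 3 B16-M arrays and above it on every array of the dormant melanoma lines, at least 2.39-fold higher than B16-M in B16-D (limma adjusted p = 4.8e-05), 4.54-fold in B16-D-733 (9.62e-07), 2.81-fold in B16-D-735 (1.11e-05) and 3.53-fold in B16-D-739 (6.39e-06). It was the only one of 6 tested fibroblast markers to pass in any of these comparisons. Since it was tested only because of its dormant arrays, its p-values are a description. The related receptor Pdgfra had lower means in the dormant lines, with differences from B16-M of -1.02, -1.29, -2.35 and -0.60 in the same order that did not pass (adjusted p = 0.567, 0.4, 0.107 and 0.898), and was above background on all 3 B16-M arrays and on none of B16-D-735. Of 7 brain glia and neuron markers, 5 were detected in every melanoma line, B16-M included, and Olig2 and Rbfox3 were on no melanoma array above background. Mbp, a myelin protein gene, had a mean level of 0.10 in B16-M, 0.13 in B16-D and 2.25 in B16-D-733, where it was higher than B16-M (2.14, adjusted p = 0.0038) and B16-D (2.12, 0.0208). Of the myeloid list, the interleukin receptor chain Il3ra was higher than B16-M in B16-D (1.27, 0.0223), B16-D-735 (1.47, 0.00625) and B16-D-739 (1.12, 0.0403), while the difference of 0.83 in B16-D-733 did not pass (0.0863) and Kit, which melanocytes also express, was higher there (0.93, 0.032). The part of these genes in the matrix results below was not tested.

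The 2 models expressed different parts of the matrix. Of the 57 genes, 39 were detected in at least 1 melanoma line and 19 in at least 1 leukemia line, 16 of them in both, and 15 in no line. Detected only in leukemia cells were Col6a3, a chain of microfibrillar collagen VI, the elastic fibre glycoprotein Emilin2 and the gelatinase Mmp9. The 15 genes detected in no line included the fibrillar chains Col3a1 and Col5a2, the laminin chains Lama1 and Lama2, Nid2, the matrix glycoprotein Tnc and the collagen cross-linking oxidases Lox and Loxl1. By line, 31 genes were detected in B16-M, 35 in B16-D, 36 in each second-generation line and 19 in each leukemia line, and 31 were detected in all 5 melanoma lines.

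**Figure D1:**
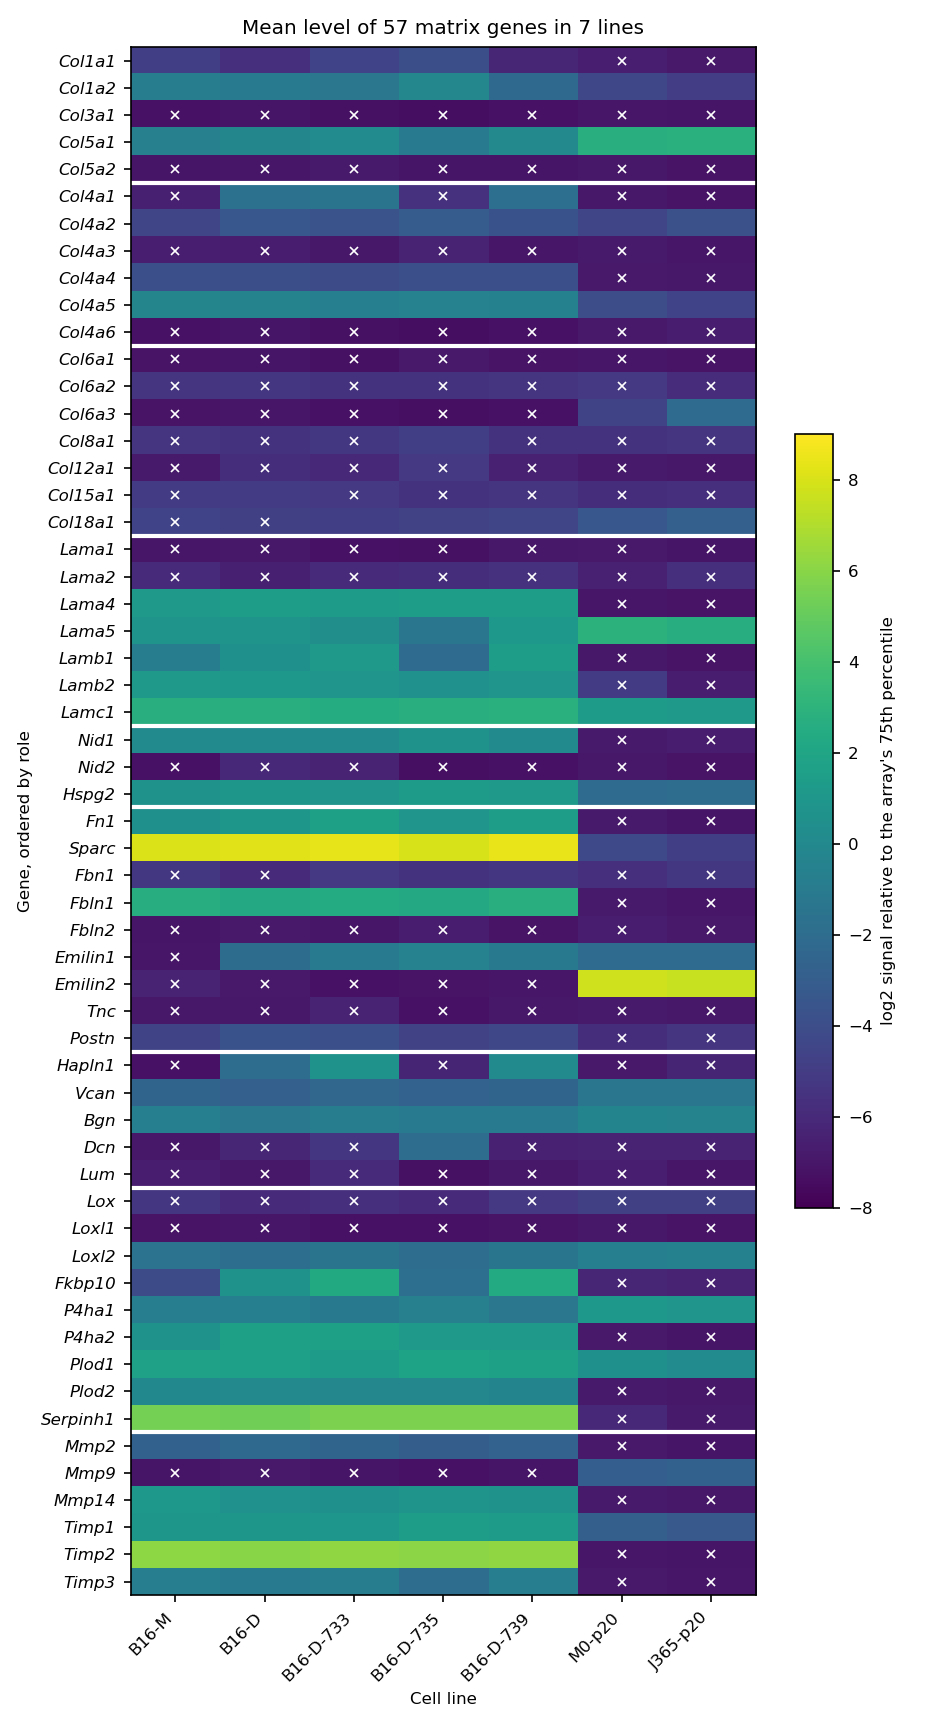
Mean log2 signal relative to the array's 75th percentile for the 57 genes (rows, by role) in the 7 lines (columns), with colour as the level and a white cross where the gene was not detected in that line. Laminins, nidogen, collagen-modifying enzymes and protease inhibitors are mostly detected in the 5 melanoma lines, with 39 genes detected in at least 1 of them against 19 in the leukemia lines.

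Dormant B16-D cells were compared with parental B16-M cells to ask which matrix genes differ in melanoma cells that had persisted in vaccinated mice. Of 39 genes tested, 5 were higher in B16-D and none was lower (12.8%, beside 2.00% of all genes tested called higher and 1.60% called lower; 7 and 2 of the 39 at an unadjusted p under 0.05). The median log2 difference of the 39 was -0.02, beside -0.04 over all genes. The 5 were a collagen IV chain, an elastic fibre glycoprotein, a hyaluronan link protein and 2 enzymes of collagen folding and hydroxylation. Of these, Col4a1, Emilin1 and Hapln1 were above background on no B16-M array and were tested only because of dormant arrays, where they were high. Their p-values, and their part in the share of 12.8%, are therefore a description. The other genes did not pass the test, among them every fibrillar collagen, laminin and protease gene tested. In bulk samples such as these, a lower share of cells expressing a gene and less RNA per cell cannot be told apart.

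Col4a1 encodes an alpha chain of collagen IV, the network collagen of all basement membranes. Its log2 level was -6.49, -6.44 and -6.61 on the B16-M arrays, none of them well above background, and -1.76, -1.46 and -1.72 on the B16-D arrays. The groups did not overlap, and Col4a1 was at least 9.54-fold higher in B16-D (log2 difference 4.87 ± 0.22 (SE), limma adjusted p = 1.12e-07). On the 2 slides that held both lines, the difference was 4.77 and 5.002. Its partner chain Col4a2, with which Col4a1 forms the common collagen IV trimer, was at -3.61, -5.05 and -4.65 in B16-M and -2.79, -3.61 and -3.77 in B16-D. Those groups overlapped, and the difference of 1.05 ± 0.37 did not pass (limma adjusted p = 0.154, 0.0197 to 0.545 over the alternatives). It passed when B16-M replicate 0 was left out, at 1.46 with a limma adjusted p of 0.0375.

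Emilin1 encodes a glycoprotein of elastic fibres that also binds integrins. It was at -6.92, -6.91 and -7.12 in B16-M, at background on all 3 arrays, and at -1.89, -1.84 and -2.18 in B16-D. It was at least 7.64-fold higher in B16-D (log2 difference 5.01 ± 0.17, limma adjusted p = 3.3e-09), with 4.74 and 5.25 on the 2 slides. Hapln1, the link protein that fixes proteoglycans to hyaluronan, was at -7.13, -7.20 and -7.13 in B16-M and -2.75, -1.31 and -1.73 in B16-D. It was at least 7.83-fold higher (log2 difference 5.22 ± 0.54, limma adjusted p = 1.14e-04), and 5.10 and 5.40 on the 2 slides. A second Hapln1 probe gave 4.48.

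The other 2 genes act in the endoplasmic reticulum. Fkbp10, a prolyl isomerase and collagen chaperone that is also needed for collagen cross-linking, was at -3.77, -4.46 and -4.18 in B16-M and 0.80, 0.73 and 0.43 in B16-D, a difference of 4.79 ± 0.24 (limma adjusted p = 1.36e-07). P4ha2, a catalytic subunit of the prolyl 4-hydroxylase that stabilises the collagen triple helix, was at 1.06, 0.62 and 0.49 in B16-M and 1.66, 1.68 and 1.74 in B16-D, a difference of 0.98 ± 0.15 (0.00282). Neither pair of groups overlapped, and Fkbp10 differed by 4.20 and 4.95 and P4ha2 by 0.68 and 1.19 on the 2 slides. With background correction by normexp, which raises the floor of dim spots, the difference shrank to 1.78 for Col4a1, 1.72 for Emilin1 and 1.88 for Hapln1, and to 3.24 for Fkbp10, with all 4 still past the threshold. P4ha2 did not pass with only the 6 arrays of the 2 lines (limma adjusted p = 0.161), and the range over the alternatives was 9.64e-04 to 0.161. The call was also lost with only arrays whose title carries no date, which hold a single B16-D array, at a difference of 0.95.

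**Figure D2:**
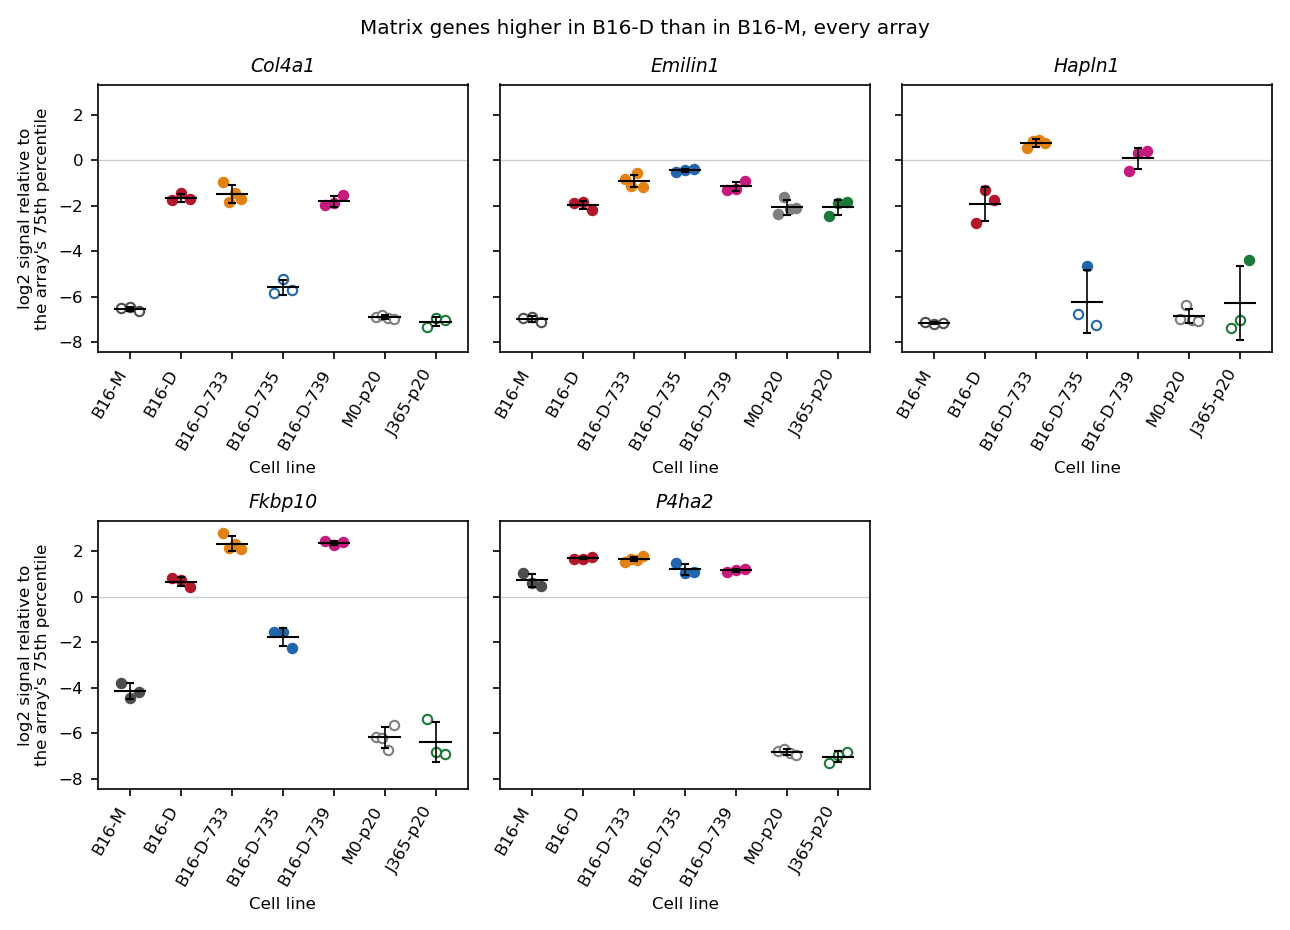
Log2 signal relative to the array's 75th percentile (vertical axis) of Col4a1, Emilin1, Hapln1, Fkbp10 and P4ha2 on every array of the 7 lines; open points are not well above background, the line is the mean and the bar the SD. All 3 B16-D arrays lie above all 3 B16-M arrays for each gene, and in B16-D-735 Col4a1 is at background.

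The promoter windows of 4 of these 5 genes and of Col4a2 are printed because Col4a1 and Col4a2 lie head to head, start in opposite directions from neighbouring positions and so share part of their windows. Each sequence is 300 bases around the annotated start, read 5′ to 3′ on the gene's own strand from RefSeq (GRCm38.p6), and capitals mark matches on either strand to the 6 short motifs counted in the next paragraph. Col4a1 lies at chr8:11312777-11313076 on the minus strand, Col4a2 at chr8:11312555-11312854 on the plus strand, Emilin1 at chr5:30913536-30913835, Hapln1 at chr13:89540386-89540685 and P4ha2 at chr11:54100674-54100973, the last 3 on the plus strand.
Col4a1: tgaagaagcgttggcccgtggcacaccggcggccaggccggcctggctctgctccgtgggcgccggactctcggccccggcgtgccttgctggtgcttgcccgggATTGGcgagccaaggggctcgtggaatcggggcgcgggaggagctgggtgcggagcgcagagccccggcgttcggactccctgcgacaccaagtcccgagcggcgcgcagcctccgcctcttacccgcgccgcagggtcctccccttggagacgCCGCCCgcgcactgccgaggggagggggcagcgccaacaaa
Col4a2: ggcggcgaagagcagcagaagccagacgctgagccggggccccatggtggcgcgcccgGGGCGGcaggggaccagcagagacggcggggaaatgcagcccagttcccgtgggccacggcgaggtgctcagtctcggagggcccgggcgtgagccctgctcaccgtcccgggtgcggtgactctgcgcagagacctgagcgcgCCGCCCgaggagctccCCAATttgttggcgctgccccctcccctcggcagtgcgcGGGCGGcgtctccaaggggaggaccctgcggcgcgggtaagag
Emilin1: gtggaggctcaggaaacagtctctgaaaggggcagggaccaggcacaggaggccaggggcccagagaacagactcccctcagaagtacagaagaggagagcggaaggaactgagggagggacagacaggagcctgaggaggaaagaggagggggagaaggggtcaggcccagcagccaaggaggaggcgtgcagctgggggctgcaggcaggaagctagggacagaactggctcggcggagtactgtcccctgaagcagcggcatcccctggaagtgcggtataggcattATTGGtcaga
Hapln1: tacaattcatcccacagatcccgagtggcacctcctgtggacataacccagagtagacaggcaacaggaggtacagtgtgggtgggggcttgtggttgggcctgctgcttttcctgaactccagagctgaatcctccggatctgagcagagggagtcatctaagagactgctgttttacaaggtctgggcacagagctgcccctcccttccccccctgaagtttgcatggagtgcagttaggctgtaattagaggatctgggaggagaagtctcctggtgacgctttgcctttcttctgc
P4ha2: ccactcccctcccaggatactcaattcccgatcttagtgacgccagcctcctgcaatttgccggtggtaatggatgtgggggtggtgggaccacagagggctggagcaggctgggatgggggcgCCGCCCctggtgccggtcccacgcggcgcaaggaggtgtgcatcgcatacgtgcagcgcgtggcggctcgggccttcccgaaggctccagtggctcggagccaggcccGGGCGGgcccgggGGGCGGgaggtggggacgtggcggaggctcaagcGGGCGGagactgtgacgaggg

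The Col4a1 and Col4a2 windows shared 78 bases and had a GC content of 74.0% and 73.7%, beside a median of 52.7% over 32851 promoters. GC content was 61.7% for Emilin1, 54.3% for Hapln1 and 70.3% for P4ha2. GGGCGG, present in 35.7% of all promoters, matched once for Col4a1, 3 times for Col4a2 and 4 times for P4ha2. The Col4a1 match lies in the shared bases and is the same site as the last of the Col4a2 matches. CCAAT, present in 37.4%, matched once each for Col4a1, Col4a2 and Emilin1. No window held TATAAA (13.6% of all promoters), TGANTCA (7.81%), CACGTG (7.15%) or CATGTG (14.2%), and Hapln1 held none of the 6 motifs. The table held windows for 39 of the 57 genes, and Fkbp10 was not among them.

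The second-generation lines were each compared with B16-M, and these comparisons share the B16-M arrays with one another and with that of B16-D. In B16-D-733, 6 genes were higher and none lower (15.4% of 39, beside 3.18% of all genes called higher and 2.39% lower; 10 and 3 of the 39 at an unadjusted p under 0.05). In B16-D-735, 5 were higher and 1 lower, beside 3.07% and 1.97%. In B16-D-739, 5 were higher and 1 lower, beside 2.15% and 1.55%. The medians of the 39 differences were 0.10, -0.03 and 0.12, beside 0.03, -0.01 and 0.00 over all genes. In all, 8 genes were called higher in at least 1 dormant melanoma line, and Col4a1, Emilin1 and Fkbp10 in all 4, although Col4a1 in B16-D-735 was at background on every array of both lines. Among the 8, Col4a1, Emilin1, Hapln1 and Dcn were above background on no B16-M array and were tested only because of dormant arrays.

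Emilin1 was high in every second-generation line. Its levels were -0.81, -1.12, -0.57 and -1.16 in B16-D-733, -0.53, -0.42 and -0.39 in B16-D-735 and -1.29, -1.25 and -0.91 in B16-D-739. It was at least 15.9-fold, 21.9-fold and 13.5-fold higher than in B16-M (log2 differences 6.07, 6.53 and 5.83, limma adjusted p = 2.5e-10, 2.29e-10 and 6.38e-10). No array of these lines overlapped B16-M or B16-D, and Emilin1 exceeded B16-D in B16-D-733 by 1.06 ± 0.16 (limma adjusted p = 0.00534, range 0.00303 to 0.192) and in B16-D-735 by 1.52 ± 0.17 (8.3e-05, range 5.63e-05 to 0.014). The B16-D-733 call was lost with normexp (0.74) and with only the lines compared. It was also lost with only undated arrays, a single one of each line, at a difference of 1.09.

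Col4a1, Hapln1 and Fkbp10 were high in B16-D-733 and B16-D-739 and much lower in B16-D-735. Col4a1 was at -0.95, -1.82, -1.46 and -1.70 in B16-D-733 and -1.98, -1.90 and -1.55 in B16-D-739, at least 10.704-fold and 8.55-fold above B16-M (log2 differences 5.03 and 4.71, limma adjusted p = 8.95e-09 and 5.15e-08). In B16-D-735 it was at -5.84, -5.23 and -5.70, none well above background, and the called difference of 0.93 ± 0.22 from B16-M (0.0279, range 0.0173 to 0.775 over the alternatives) compares 2 lines at background and gives no fold. That call was lost with normexp (-0.12), without the filter on dim probes and whenever any single B16-M array, or B16-D-735 replicate 1 or 2, was left out, with log2 differences of 0.74 to 0.98.

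Hapln1 was at 0.53, 0.86, 0.90 and 0.75 in B16-D-733 and -0.46, 0.32 and 0.40 in B16-D-739. It was at least 50.6-fold and 31.7-fold above B16-M (log2 differences 7.91 and 7.24, limma adjusted p = 5.42e-07 and 3.42e-06), and the second probe gave 7.19 and 6.67. In B16-D-735 it was at -6.76, -4.63 and -7.23, above background on 1 array, and did not differ past the threshold from B16-M (0.95 ± 0.54, adjusted p = 0.446). Hapln1 exceeded B16-D in B16-D-733 by 2.69 ± 0.50 (limma adjusted p = 0.0329, range 2.04e-04 to 0.358). That call was lost when B16-D replicate 0 or 3, or any B16-D-733 array, was left out.

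Fkbp10 was at 2.79, 2.14, 2.31 and 2.09 in B16-D-733, 2.44, 2.26 and 2.40 in B16-D-739 and -1.53, -1.55 and -2.24 in B16-D-735. All 3 lines lay above the B16-M arrays without overlap, by 6.47, 6.50 and 2.36 (limma adjusted p = 2.03e-09, 5.54e-09 and 4.17e-05). Fkbp10 also exceeded B16-D by 1.68 ± 0.22 in B16-D-733 (0.00222, range 2.89e-04 to 0.166) and by 1.71 ± 0.24 in B16-D-739 (0.00587, range 7.17e-04 to 0.0935), the only gene of the set past the threshold in the latter comparison. P4ha2 was at 1.53, 1.68, 1.63 and 1.77 in B16-D-733, higher than B16-M by 0.93 ± 0.14 (0.00135). The call was lost with only undated arrays, which hold a single B16-D-733 array, at a difference of 0.81. Its levels of 1.48, 1.03 and 1.09 in B16-D-735 and 1.08, 1.19 and 1.21 in B16-D-739 gave differences of 0.48 and 0.44 that did not pass (adjusted p = 0.1 and 0.167, ranges 0.0213 to 0.429 and 0.0359 to 0.463). Both passed without B16-M replicate 0, at 0.65 and 0.61.

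Compared with B16-D itself, B16-D-733 had 3 genes higher and none lower (7.69% of 39, beside 0.411% and 0.0699% of all genes; 4 and 1 at an unadjusted p under 0.05), B16-D-739 had 1 higher and none lower (beside 0.230% and 0.0782%; 6 and 2 unadjusted), and B16-D-735 had 3 higher and 5 lower (beside 4.07% and 3.93%). With only undated arrays, a single one of B16-D and of B16-D-733, the differences of the 3 genes were 1.09 for Emilin1, 1.99 for Fkbp10 and 3.28 for Hapln1.

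The other basement membrane genes differed less among the melanoma lines. Of the collagen IV chains, Col4a4 and Col4a5 were detected in all 5 melanoma lines and Col4a3 and Col4a6 in none. Col4a4 was between -4.35 and -3.32 on all 16 arrays, and Col4a5, a chain of specialised basement membranes, was at -0.58, -0.17 and 0.02 in B16-M and between -0.82 and -0.09 on the dormant arrays. Neither passed the test in any of the melanoma comparisons. Col4a2 was at -3.19, -3.74, -3.61 and -3.98 in B16-D-733, -2.61, -3.12 and -3.49 in B16-D-735 and -3.52, -3.94 and -3.61 in B16-D-739. Its differences from B16-M of 0.81, 1.36 and 0.75 did not pass (limma adjusted p = 0.231, 0.0512 and 0.399, ranges 0.022 to 0.732 in B16-D-733 and 0.00306 to 0.247 in B16-D-735). With replicate number as a block, which pairs B16-M with B16-D-733, the B16-D-733 difference was 0.93 and passed (0.022), and without B16-M replicate 0 it was 1.22 and the B16-D-735 difference 1.78, both passing.

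Laminins are trimers of an alpha, a beta and a gamma chain, and 5 of the 7 chains were detected in every melanoma line. The gamma chain Lamc1, shared by most laminins, was at 2.61, 2.71 and 2.90 in B16-M and between 2.26 and 3.02 on the dormant arrays. Lama4, an alpha chain typical of vessels and nerve, was at 0.99, 1.24 and 1.39 in B16-M and between 1.03 and 1.79 on the dormant arrays. Lamb2 was at 0.83, 1.25 and 1.38 in B16-M and between 0.13 and 1.36 on the dormant arrays. Each dormant line overlapped B16-M for these 3 chains, except Lama4 in B16-D-739, and no difference passed.

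Lamb1, the beta chain of most early basement membranes, had the widest range of line means among the laminin chains in melanoma. It was at 0.50, -1.47 and -1.54 in B16-M, 0.68, 0.56 and 0.39 in B16-D, 1.86, 0.98, 0.97 and 0.85 in B16-D-733, -1.80, -2.08 and -2.31 in B16-D-735 and 1.60, 1.52 and 1.43 in B16-D-739. B16-M replicate 0 stood apart from the other two B16-M arrays and overlapped B16-D. Lamb1 was higher than B16-M by 2.00 ± 0.41 in B16-D-733 (limma adjusted p = 0.0104, range 4.82e-05 to 0.164) and by 2.35 ± 0.43 in B16-D-739 (0.00723, range 3.54e-05 to 0.141). The B16-D difference of 1.38 ± 0.43 did not pass (0.110, range 0.00127 to 0.531). It passed without B16-M replicate 0 (2.05, 0.00127) and with the mean of all probes (1.30, 0.028). Conversely the B16-D-733 call was lost without B16-M replicate 1 or 2, at 1.69 and 1.65. On the 3 slides the B16-D-733 difference ran from 0.42 to 3.33.

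**Figure D3:**
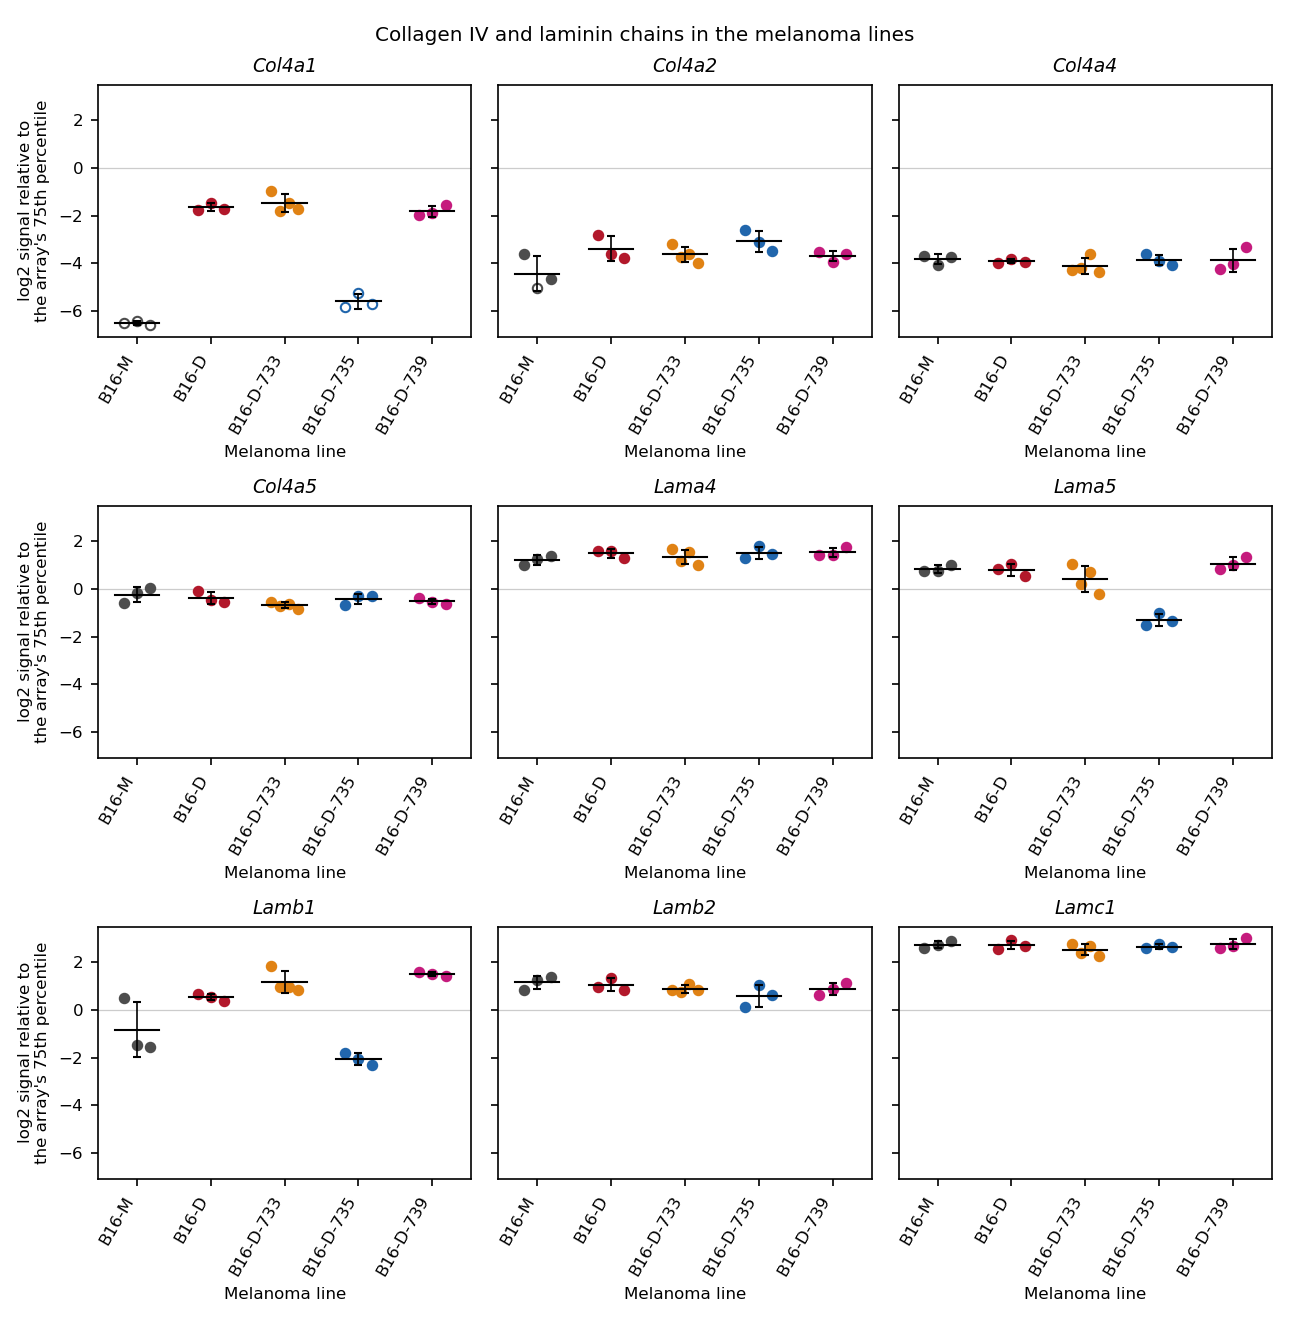
Log2 signal relative to the array's 75th percentile (vertical axis) of 4 collagen IV and 5 laminin chains on every array of the 5 melanoma lines; open points are not well above background, the line is the mean and the bar the SD. Col4a1 is at background in B16-M and B16-D-735 and overlaps among the other 3 lines, Lamb1 is lowest in B16-D-735, Lama5 is low only in B16-D-735 and no difference of the other chains from B16-M passed in the fit of all 16 melanoma arrays.

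B16-D-735 was compared with the mean of B16-D-733 and B16-D-739 to ask how far the second-generation lines differ from one another. Of 39 genes tested, 5 were higher and 7 lower in B16-D-735, 12.8% and 17.9%, beside 5.31% and 5.55% of all genes. The median of the 39 differences was -0.04, beside -0.02 over all genes. One of the 5 higher genes, Dcn, passed the filter on dim probes only through the 3 arrays of B16-D-735, where it was high. Col4a1, among the 7 lower genes, was above background on no B16-D-735 array and passed the filter only through other lines, where it was high. The p-values of Dcn and Col4a1, and their part in these shares, are therefore a description. The lower genes were Col4a1, the laminin chains Lama5 and Lamb1, Hapln1, Fkbp10, Col5a1 and Sparc, and the higher ones were Dcn, Col1a2, Nid1, Emilin1 and Plod1.

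Fkbp10 differed by -4.12 ± 0.20 (limma adjusted p = 8.01e-08), from the levels given above. Hapln1 differed by -6.63 ± 0.46 (1.06e-06), but it was above background on only 1 of the 3 B16-D-735 arrays, so the size of this difference depends on the background of the other arrays. Col4a1 was at least 10.85-fold lower (log2 difference -3.95 ± 0.19, adjusted p = 8.01e-08), with values on the 3 slides from -4.42 to -3.73, and Lamb1 differed by -3.40 ± 0.37 (6.29e-05). With normexp the difference was -1.87 for Col4a1 and -3.71 for Hapln1. Lama5, the alpha chain of the main adult basement membrane laminins, was at 0.74, 0.74 and 1.01 in B16-M, 0.86, 1.03 and 0.53 in B16-D, 1.03, 0.22, 0.69 and -0.22 in B16-D-733, 0.83, 1.01 and 1.35 in B16-D-739, and -1.52, -1.03 and -1.36 in B16-D-735. All 3 B16-D-735 arrays lay below every other melanoma array, and the difference was -2.05 ± 0.23 from the mean of the other second-generation lines (9.38e-05), -2.13 from B16-M (3.59e-04) and -2.10 from B16-D (3.75e-04).

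Dcn, a small collagen-binding proteoglycan, was above background in B16-D-735 alone. It was at -0.83, -1.99 and -2.999 in B16-D-735 and between -7.02 and -4.92, at background on each array, in the other 4 melanoma lines. It was at least 7.98-fold higher than the mean of the other second-generation lines (log2 difference 3.92 ± 0.40, limma adjusted p = 3.65e-05), at least 7.80-fold higher than B16-M and at least 7.01-fold higher than B16-D. These p-values are a description, since the gene was tested at all only because of its B16-D-735 arrays. With normexp the difference was 1.44. Dcn was not tested when any 1 B16-D-735 array was left out, since it then had fewer than 3 arrays above background. Nid1, which links laminin to collagen IV, was at -0.06, 0.18 and 0.05 in B16-M, 0.08, 0.38, 0.14 and 0.01 in B16-D-733, 0.26, -0.04 and -0.04 in B16-D-739 and 0.67, 0.64 and 0.73 in B16-D-735. It was higher by 0.58 ± 0.10 (0.00297, range 0.0019 to 0.357), and with the mean of both its probes, the second of which was at background on every array, the difference was 0.20 and did not pass.

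The fibrillar chain Col1a2 was at -2.13, -1.03, -0.68 and -1.10 in B16-D-733, -2.29, -2.21 and -2.11 in B16-D-739 and -0.17, -0.04 and -0.25 in B16-D-735. It was higher in B16-D-735 by 1.57 ± 0.24 (limma adjusted p = 0.00108). Against B16-M (-0.61, -1.13 and -0.91), B16-D-739 differed by -1.32 ± 0.29 (0.0206, range 0.00345 to 0.0835). That call was lost when B16-M replicate 0 or 2, or any B16-D-739 array, was left out. Col5a1, a chain that nucleates collagen fibrils, was at 0.36, 0.12, 0.45 and -0.03 in B16-D-733, -0.25, 0.06 and 0.28 in B16-D-739 and -1.66, -0.44 and -0.64 in B16-D-735, a difference of -1.04 ± 0.31 (0.0455, range 0.0127 to 0.227). The Col5a1 call was lost when any of 9 of the 10 arrays, all but B16-D-735 replicate 1, was left out, at -0.67 without B16-D-735 replicate 0.

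The last 3 calls were small. Sparc, a collagen-binding glycoprotein, was at 8.54, 8.39, 8.22 and 8.30 in B16-D-733, 8.57, 8.36 and 8.32 in B16-D-739 and 8.06, 7.92 and 8.01 in B16-D-735, a difference of -0.39 ± 0.11 (limma adjusted p = 0.032, range 0.00703 to 0.133). Emilin1 was higher by 0.58 ± 0.14 (0.0174, range 0.00692 to 0.0824). Plod1, a lysyl hydroxylase of collagen, was at 1.38, 1.38, 1.24 and 1.46 in B16-D-733, 1.59, 1.68 and 1.77 in B16-D-739 and 1.96, 1.82 and 1.75 in B16-D-735, higher by 0.32 ± 0.09 (0.0431, range 0.0241 to 0.234), with B16-D-735 overlapping B16-D-739. With replicate number as a block it was 0.33 and did not pass (0.0548). All of these calls were lost when single arrays were left out: Sparc for B16-D-733 replicate 0 or 1, any B16-D-735 array or B16-D-739 replicate 0; Emilin1 for B16-D-735 replicate 1 or 2; and Plod1 for any array but B16-D-739 replicate 2. Leaving out B16-D-735 replicate 2 left 7 of the 12 calls.

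**Figure D4:**
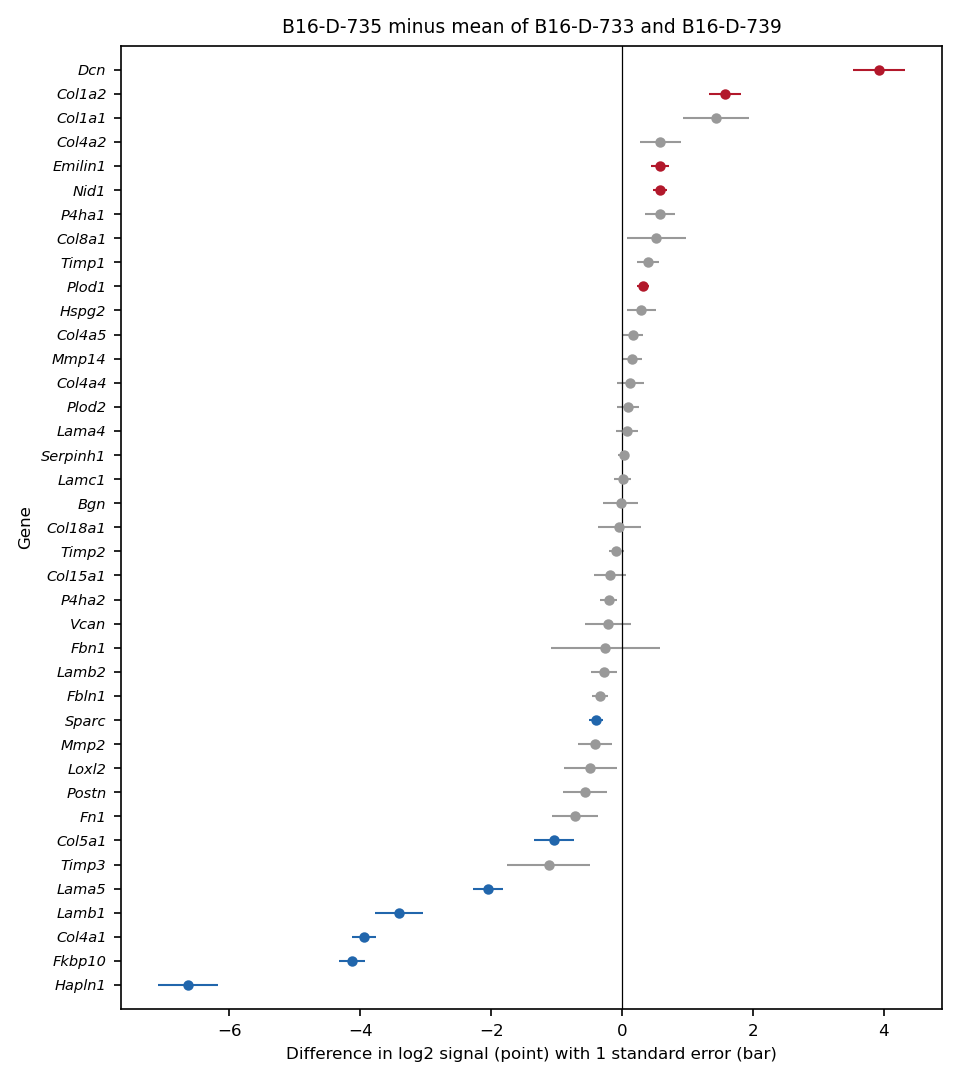
Log2 difference (horizontal axis, ± 1 SE) between B16-D-735 and the mean of B16-D-733 and B16-D-739 for the 39 genes tested, red where higher and blue where lower past the adjusted threshold and grey otherwise. Past the threshold are 5 genes higher and 7 lower, and the sizes for Hapln1, Col4a1 and Dcn rest on a line largely or wholly at background.

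Leukemia cells were compared in the same way, J365-p20 with M0-p20. Of 19 genes tested, 1 was higher and none lower in J365-p20 (5.26%, beside 0.488% of all genes called higher and 0.579% lower; 3 and 0 of the 19 at an unadjusted p under 0.05), with a median difference of -0.04 beside -0.02 over all genes. The gene was Col6a3, at -4.20, -4.46, -4.93 and -4.36 on the M0-p20 arrays, 2 of them above background, and at -1.27, -2.47 and -2.42 in J365-p20. It was higher by 2.44 ± 0.34 without overlap (limma adjusted p = 0.0153, range 0.00836 to 0.0695), and by 2.05 to 3.01 on the 3 slides. With normexp the difference was 1.13, and a second probe, above background on 2 arrays, gave 0.85. The call was lost when M0-p20 replicate 1, 2 or 3 was left out, at 2.44, 2.29 and 2.48.

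The genes higher in dormant melanoma cells were at other levels in the leukemia lines. Emilin1 was at -2.38, -1.60, -2.15 and -2.10 in M0-p20 and -2.46, -1.90 and -1.85 in J365-p20, above background on every array, with overlapping groups. Its change in the melanoma model exceeded that in the leukemia model by 5.02 ± 0.28 in a test of the difference between them (limma adjusted p = 1.26e-09), a size that rests on the background level of B16-M. In melanoma it passed the filter on dim probes only through dormant arrays, where it was high, so this p-value is a description. Emilin1 was the only 1 of 16 genes tested there to pass, beside 0.658% of all genes called higher and 0.706% lower, and no gene was lower. Col4a1, Hapln1, Fkbp10 and P4ha2 were too dim in leukemia cells to be tested there. Without the filter on dim probes they also passed (5.07, 4.64, 4.98 and 1.17), as did Lamb2 (1.60) and, in the other direction, Col6a3 (-2.29). These sizes rest on lines at background. Col4a1, Fkbp10 and P4ha2 were at background on every leukemia array, and Hapln1 on all but 1 of J365-p20. Of the basement membrane genes in leukemia cells, Lamc1 was at 1.52, 1.65, 1.11 and 1.35 in M0-p20 and 1.18, 1.02 and 1.15 in J365-p20. Lama5 was at 2.76, 3.16, 2.70 and 2.97 in M0-p20 and 2.50, 2.28 and 2.90 in J365-p20. Col18a1, the source of endostatin, was at -3.34, -3.01, -3.46 and -3.67 in M0-p20 and -2.66, -2.96 and -2.73 in J365-p20, apart from M0-p20, a difference of 0.59 that did not pass (adjusted p = 0.512).

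**Figure D5:**
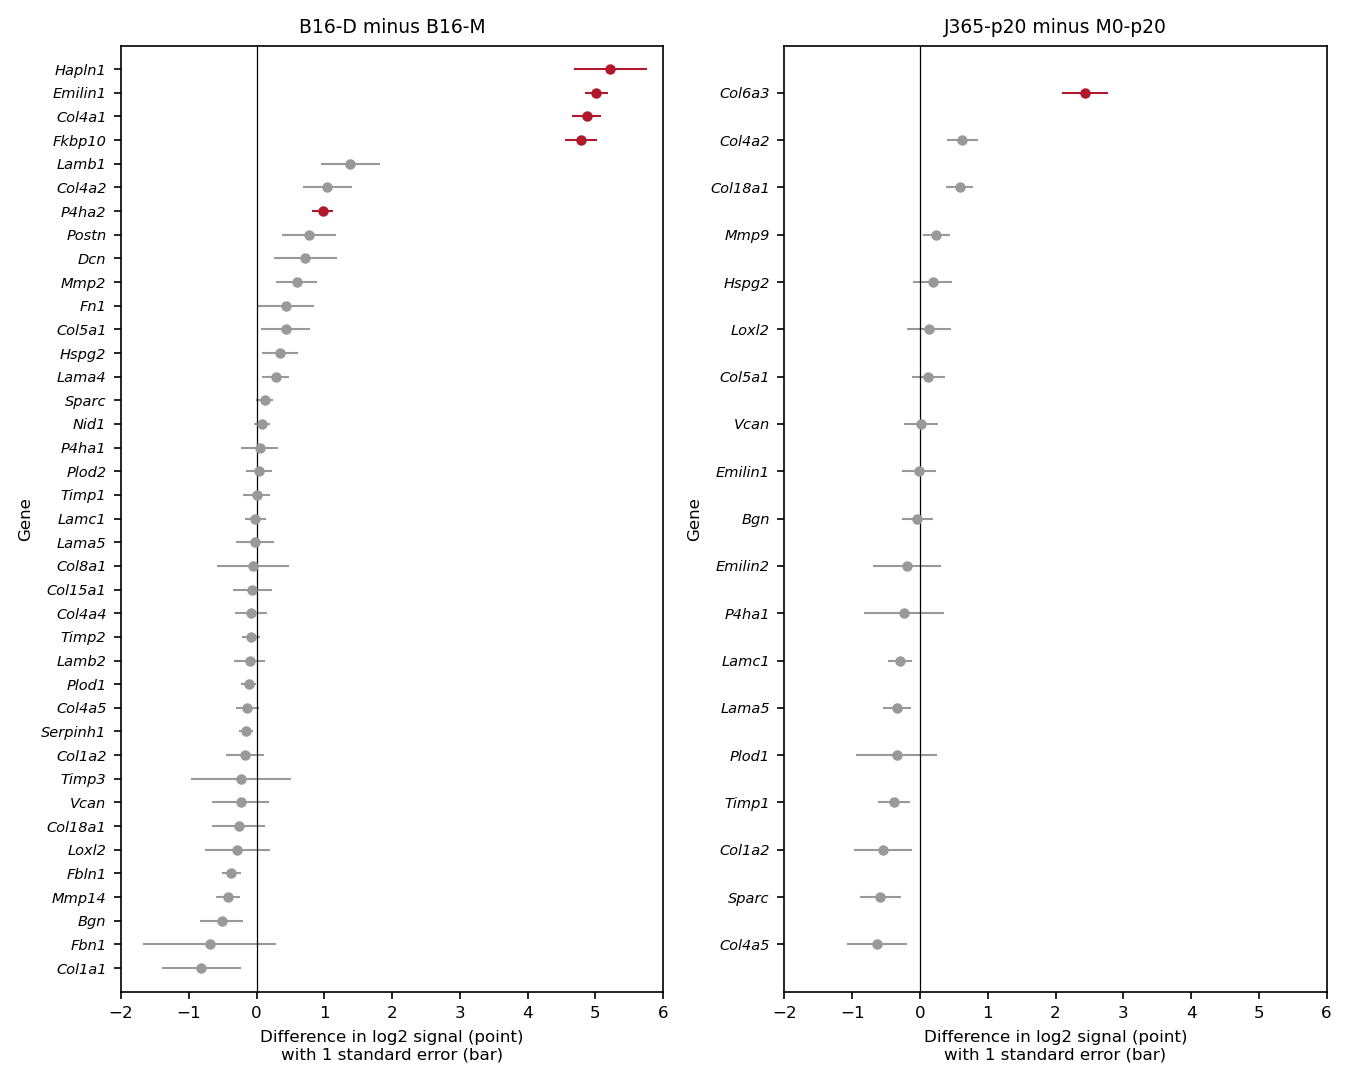
Log2 differences (horizontal axis, ± 1 SE) of the genes tested between dormant and parental cells, B16-D minus B16-M at left and J365-p20 minus M0-p20 at right, coloured where past the adjusted threshold. In melanoma 5 genes of 39 are higher, and in leukemia 1 gene of 19, Col6a3, is higher.

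The 2 parental lines were set side by side to show how far the matrix genes of the parental cells differ. Of 43 genes tested, 24 were higher in B16-M and 9 lower (55.8% and 20.9%, beside 25.2% and 31.0% of all genes), with a median difference of 1.33 beside -0.19 over all genes. Genes at background on every array of either line passed the filter on dim probes through no array of that line. Their p-values, and their part in these shares, are therefore a description. Several matrix genes that were bright in B16-M were at background in M0-p20. Serpinh1, the collagen chaperone HSP47, was at 5.36, 5.45 and 5.54 in B16-M, at least 1110-fold higher (log2 difference 11.51, limma adjusted p = 7.93e-19). Timp2, a metalloprotease inhibitor, was at 6.06, 5.95 and 6.26, at least 1727-fold higher (13.03, 8.68e-23). Sparc, at 8.08, 8.13 and 8.19 in B16-M and -4.31, -4.46, -4.26 and -4.07 in M0-p20, was higher by 12.41 ± 0.20. Fibronectin (Fn1) was at least 37.5-fold, fibulin 1 (Fbln1) at least 155-fold and Lama4 at least 58.7-fold higher, and the matrix metalloprotease Mmp14 at least 51.97-fold higher.

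The 9 genes lower in B16-M were Emilin2, Emilin1, Mmp9, Col5a1, Col6a3, Lama5, P4ha1, Vcan and Col18a1. Emilin2, at background in every melanoma array, was at 6.55, 8.46, 8.10 and 7.96 in M0-p20, so that B16-M was at least 6512-fold lower, and at 6.80, 7.90 and 8.02 in J365-p20. Emilin1 was at least 7.18-fold lower in B16-M than in M0-p20. Col5a1 was at 2.41, 2.88, 2.61 and 2.67 in M0-p20, and -1.11, -0.57 and -0.17 in B16-M. The perlecan gene Hspg2, the main basement membrane proteoglycan, was at 0.18, 0.90 and 0.85 in B16-M and -2.10, -2.66, -1.64 and -1.94 in M0-p20. Biglycan (Bgn) was between -0.79 and 0.08 on the leukemia arrays and between -1.64 and -0.52 on the melanoma arrays.

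The remaining members can be given by their ranges over the 16 melanoma arrays. Fbln1 was between 2.01 and 3.01, Fn1 between -0.10 and 2.73, Timp1 between 0.69 and 1.81, Plod2 between -0.55 and 0.19 and Mmp14 between 0.26 and 1.16, each above background on every array. Mmp14 was at 0.83, 1.11 and 1.16 in B16-M and 0.43, 0.57, 0.72 and 0.53 in B16-D-733, a difference of -0.47 that passed only with replicate number as a block (-0.47, limma adjusted p = 0.0337, against 0.134 without it and 0.0337 to 0.435 over the alternatives). P4ha1 (-1.60 to -0.09), Loxl2 (-2.79 to -0.95), Vcan (-3.31 to -1.86) and Mmp2 (-3.28 to -1.43) were also above background throughout. Dim members were Postn, above background on 14 arrays, Col1a1 on 12, Fbn1 on 9, Col18a1 on 8, and Col8a1 and Col15a1 on 4 each.

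Genes of related function that are not in the set were counted by list. Between B16-D and B16-M, where 2.00% of all genes were higher and 1.60% lower, 2 of 22 tested other matrix proteins were higher, Thbs2 (1.60, limma adjusted p = 0.0253) and Col7a1 (1.36, 0.041), and none was lower. Of 16 other collagen-making enzymes 1 was higher, Pcolce2 (1.46, 9.3e-04), an enhancer of procollagen processing, which was also higher in B16-D-733 (3.38), B16-D-735 (2.18) and B16-D-739 (2.43). Of 16 other proteases and inhibitors 2 were lower, Mmp16 (-1.25) and Reck (-0.41). Of 18 matrix receptors 1 was lower, the integrin chain Itga9 (-1.12, 5.35e-04), and of 18 TGF-beta pathway genes none passed in either direction, with 0 higher and 1 lower at an unadjusted p under 0.05. A single gene of 16 or 18 is 6.25% or 5.56% of a list, so these counts tell little about the lists.

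Between B16-D-735 and the mean of B16-D-733 and B16-D-739, where 5.31% of all genes were higher and 5.55% lower, 4 of 22 other matrix proteins were higher and 5 lower (18.2% and 22.7%), with Col16a1 at 1.57, Thbs1 at -1.60 and Egfl7 at -1.55. Of 16 other proteases and inhibitors 3 were higher and 2 lower (18.8% and 12.5%), with Adam12 at -1.80, Mmp16 at 1.46 and Plat at 1.25. Of 18 matrix receptors 2 were higher and 2 lower (11.1% each), with Itgb5, an integrin chain that pairs with alpha v, at -2.98 (limma adjusted p = 3.87e-07). Of 18 TGF-beta pathway genes none was higher (1 at an unadjusted p under 0.05) and 2 were lower (11.1%), the latent TGF-beta binding protein Ltbp1 (-2.60) and Smad3 (-0.61). Of 16 other collagen-making enzymes 1 was higher and 2 lower (6.25% and 12.5%), P3h2 (0.60) and Creb3l1 (-0.73) among them. In leukemia, where 0.488% of all genes were higher and 0.579% lower, 1 of 13 other matrix proteins was higher in J365-p20, Col5a3 (at least 2.80-fold, adjusted p = 0.00567), and 2 were lower, Thbs1 (at least 2.73-fold, 0.0226) and Bcan (-2.10, 0.00304). Of 14 TGF-beta pathway genes Tgfbr3 was lower, by at least 1.28-fold (0.0345). No gene passed among 13 collagen-making enzymes, 9 proteases and inhibitors and 12 matrix receptors, with 1, 1 and 2 at an unadjusted p under 0.05.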

How the data were processed

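The submitters' processing notes name Agilent Feature Extraction 10.7.3.1, and the deposited files are its output for 24 single-colour mouse arrays on 3 slides of 8, 1 scan per slide, with 62976 spots per array. The authors deposited spot intensity after the software's background subtraction and spatial detrending, with no scaling between arrays, and the deposited series table held the same values. From this intensity, log2 levels were computed here by subtracting each array's 75th percentile over non-control spots. Control spots and 2468 outlier spots were dropped, spots of a probe averaged, and a gene read from its brightest probe by mean over the 23 arrays used. A probe counted as well above background on an array when any of its spots did. Its averaged level can therefore lie below the dimmest single spot above background, as for Col1a1 on B16-D replicate 1 (-6.16). Of 56605 probes, 32994 were named through RefSeq accessions (GRCm38.p6). Precision is limited by the number of arrays.

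Differences were tested with limma 3.58.1 in R 4.3.3, in 1 fit of the 16 melanoma arrays, 1 of the 7 leukemia arrays and 1 of all 23, on genes well above background on at least 3 arrays of the fit, with Benjamini-Hochberg adjustment over all of them (24312, 22971 and 26759, and 20821 for the difference between models) and a threshold of 0.05. "At least" folds set the brighter line's mean against the dimmest signal well above background. A gene with such a fold passed the filter through no array of its dimmer side, so its p-value is a description. Scripts were tested on simulated data, and figures drawn with Python 3.11.15, pandas 2.3.3 and matplotlib 3.10.9. Promoters came from RefSeq. B16-D replicate 2 was left out, and 1 B16-D-733 array whose title repeats another's number was given number 3.

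The members and lists were chosen with earlier results of these data known. Genes were named with values on every array where they passed in B16-D against B16-M, J365-p20 against M0-p20 or B16-D-735 against the mean of B16-D-733 and B16-D-739, where they were collagen IV or laminin chains detected in melanoma, or where they were the brightest of a role. Lists of other genes name up to 3 genes, those of largest change without overlap.

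Replicate numbers were taken as pairs where same-numbered arrays deviated together, with every correlation over 0.1: B16-M with B16-D-733 (0.523, 0.283 and 0.775) and with B16-D-739 (0.691, 0.516 and 0.783), and B16-D-733 with B16-D-739 (0.537, 0.376 and 0.783). B16-D-735 was not paired with these lines. With B16-D it had correlations of 0.234 and 0.622, also over 0.1, on the numbers they share. Every same-numbered pair of B16-M and B16-D-739 lay on a shared slide. So did replicate 2 of B16-D-733 with replicate 2 of these lines, and replicate 1 of B16-D with that of B16-D-735. A shared number and a shared slide cannot be told apart for these arrays. Alternatives were quantile normalization, normexp on the median foreground signal (offset 50), other filters and probe rules, slide, replicate number or title date as a block, only the lines compared, B16-D replicate 2 put back, single arrays left out and, chosen after seeing the data, only arrays whose title carries no date. The last leaves a single array of B16-D and of B16-D-733, so ranges that include it rest on fewer arrays for these lines. All 48 calls between melanoma lines or between leukemia lines kept their sign on every slide that held the lines. The calls were made on these same arrays, so this is a description and no separate test.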

Additional observations from a re-analysis of the deposited data

Results flagged for a closer look

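In the lines with 4 arrays, 4 of 55 combinations of line and gene had 1 array far from the other 3 by Dixon's test, which chance gives in about 1 of 20. In B16-D-733, replicate 0 was at 1.86 for Lamb1 (0.85 to 0.98 on the other arrays), at 0.89 for Timp3 (-1.43 to -1.30) and at -2.90 for Col1a1 (-5.24 to -4.97). In M0-p20, replicate 0 was at -0.88 for Plod1 (0.89 to 1.16).

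The change of Emilin1 between dormant and parental cells differed between the models by 5.02 in the test of the difference itself, a size that rests on the background level of B16-M. In melanoma Emilin1 passed the filter on dim probes only through dormant arrays, where it was high, so this call is a description.

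The B16-D array that was left out, replicate 2, lay above every B16-M array for each of the 5 genes higher in B16-D. Its levels were -1.78 for Col4a1 (B16-M -6.61 to -6.44), -1.35 for Emilin1 (-7.12 to -6.91), -0.98 for Hapln1 (-7.20 to -7.13), 0.24 for Fkbp10 (-4.46 to -3.77) and 1.33 for P4ha2 (0.49 to 1.06). This array had 90.3% of spots above background. Many other genes at background in B16-M were raised on it, such as Col3a1 (-2.11) and Lama1 (-2.20), though Col6a3 (-7.34) and Lum (-7.46) were not. Its place above B16-M therefore tells little for Col4a1, Emilin1 and Hapln1.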

How the results depend on the processing

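Among calls lost under an alternative, the sign turned only for Col4a1 in B16-D-735 against B16-M, at background in both lines (0.93, and -0.12 with normexp). The count of genes past the threshold between B16-D-739 and B16-D was 1, 2 with normexp, 2 with slide as a block, 2 with title date as a block and 0 with only the lines compared. Between J365-p20 and M0-p20 it was 1, and 0 with replicate number as a block, where Col6a3 had a difference of 2.29 (adjusted p = 0.0695, range 0.00836 to 0.0695). The difference between models was called for 1 gene, and for 7 without the filter on dim probes. Between B16-D-733 and B16-D, 3 genes were called. Only undated arrays leave a single array of each of these lines, with differences of 1.09 for Emilin1, 1.99 for Fkbp10 and 3.28 for Hapln1. The causes of the changed counts were not tested, apart from the wider set tested without the filter.

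With replicate number as a block, the counts were 6 for B16-D against B16-M (5 without), 8 for B16-D-733 (6), 7 for B16-D-735 (6), 6 for B16-D-739 (6) and 11 for B16-D-735 against the mean of the other second-generation lines (12). Numbers did not pair B16-D with B16-M (0.265 and 0.042) or J365-p20 with M0-p20 (0.436, -0.034 and 0.136).

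Leaving out single arrays gave 5 to 7 genes for B16-D against B16-M, 5 to 7 for B16-D-733, 4 to 7 for B16-D-735, 5 to 6 for B16-D-739, 2 to 3 for B16-D-733 against B16-D, 6 to 9 for B16-D-735 against B16-D, 7 to 11 for B16-D-735 against the mean of the other second-generation lines, 0 to 1 for J365-p20 and 32 to 34 for B16-M against M0-p20. Genes at background in 1 line have only a lower bound on their fold.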

Other observations

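Timp3, an inhibitor of metalloproteases, was higher on replicate 0 than on the other arrays in 4 of the 5 melanoma lines. It was at 0.08 in B16-M (-1.30 to -0.90 on the others), 0.81 in B16-D (-1.94 to -1.68), 0.89 in B16-D-733 (-1.43 to -1.30) and -0.01 in B16-D-739 (-1.27 to -1.002). In B16-D-735 replicate 0 was at -2.14, below the others at -1.94 to -1.64. In B16-D and B16-D-733, replicate 0 was the only array used whose title carries no date, so the number and the date cannot be told apart there. In the main fit Timp3 passed in no comparison between melanoma lines. With title date as a block, B16-D-735 differed past the threshold from the mean of B16-D-733 and B16-D-739 (-2.04, limma adjusted p = 0.00212) and from B16-D (-2.59, 0.00346), and B16-D-733 from B16-M (1.72, 0.0446). Plod1 was lower on replicate 0 in both leukemia lines, at -0.88 in M0-p20 (0.89 to 1.16 on the others) and -0.79 in J365-p20 (0.83 and 0.59).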
